A study of Mus musculus with 15 samples.

Results

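The genes described are 7 genes of steroid hormone production, taken by name from the 24421 genes measured in mouse brain tumours: Nr5a1, Mc2r, Akr1cl, Star, Cyp11a1, Nr0b1 and Scarb1. They were picked because Nr5a1, Mc2r and Akr1cl were close to absent in high-grade glioma (HGG) and high in control ependymoma (EPN), so the difference between those tumour types is described here and not tested. Steroid cells of the adrenal cortex and gonads take up cholesterol through the lipoprotein receptor encoded by Scarb1, move it into mitochondria with the carrier encoded by Star, and cut its side chain with the enzyme encoded by Cyp11a1. The nuclear receptor encoded by Nr5a1 (steroidogenic factor) switches on many genes of this route, the product of Nr0b1 (DAX1) represses it, and the product of Mc2r is the receptor for the pituitary hormone ACTH. Akr1cl belongs to the aldo-keto reductase family, some members of which reduce steroids.

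RNA was sequenced in 15 brain tumour libraries, in 5 groups of 3: EPN Sox9-GOF, EPN control, HGG Sox9-LOF, HGG Sox9-GOF and HGG control. GOF and LOF stand for gain and loss of function of Sox9, a transcription factor of glial, cartilage and testis development. The labels give the tissue as brain tumour and the genotype as the group name. They do not give the alleles, the way Sox9 was altered, the promoter, the age of the mice, or whether replicates came from separate animals, so p-values measure the spread between these libraries. The libraries held 4665428 to 14119140 reads in genes, with a median of 10578708.

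Sox9 checks the labels. Its rescaled count, a read count put on a common scale over the 15 libraries, averaged 2194 ± 446 in EPN Sox9-GOF and 1091 ± 84.4 in EPN control (SD, n = 3 each). In HGG it averaged 571 ± 172 in the group labelled Sox9-LOF and 1401 ± 131 in the Sox9-GOF group, against 271 ± 47.6 in HGG control (SD, n = 3 each). The 3 libraries labelled Sox9-LOF all held more Sox9 than each HGG control, so that label runs against the transcript. The ependymal markers did not mark the EPN tumours. The summed level of the 10 genes was 205 to 337 in EPN Sox9-GOF and 295 to 355 in EPN control. It was 508 to 949 in HGG control and 482 to 776 in HGG Sox9-LOF. In HGG Sox9-GOF it was 333 to 547, which overlapped both EPN groups. Among 10 genes known from ependymoma with a ZFTA-RELA fusion, Notch2 and Ephb2 were higher in all 6 EPN libraries than in all 9 HGG libraries. L1cam was lower, and the ranges of the others overlapped. Of the 15109 genes with a mean of at least 10, 10.1% were higher and 7.46% lower in this way. With so few genes, these counts do not show that the list marks EPN.

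The regulators and the ACTH receptor set the EPN tumours apart. Nr5a1 (minus strand of chromosome 2, 38692656 to 38714542 in mm10) had rescaled counts of 4263, 3453 and 3996 in EPN Sox9-GOF and 3025, 2326 and 3588 in EPN control. The 9 HGG libraries held 9 Nr5a1 reads in all, and none exceeded a rescaled count of 4.68. Every EPN library was therefore far above every HGG library, and the EPN groups overlapped each other. By reads, the ratio of EPN control to HGG control was 4609, with a 95% counting interval of 1275 to 38065, because HGG control held 2 reads, both in its first library. Without that library the count of 0 gives a ratio of at least 1846, with a floor of 3 reads over the group. In bulk tissue, fewer cells of a type and less RNA per cell cannot be told apart, and this holds for each level given here.

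Nr0b1 (plus strand of chromosome X, 86191764 to 86195947) had rescaled counts of 393, 198 and 274 in EPN Sox9-GOF and 241, 214 and 403 in EPN control. No HGG library exceeded 3.51. The EPN groups covered almost the same range, and both lay above all HGG libraries.

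Mc2r, on chromosome 18, had rescaled counts of 727, 871 and 1887 in EPN Sox9-GOF and 589, 635 and 815 in EPN control. The 9 HGG libraries held 5 Mc2r reads in all. The third EPN Sox9-GOF library stood well above the other 5 EPN libraries. Mrap, which encodes the accessory protein that carries this receptor to the cell surface, was also higher in all EPN libraries, with means of 202 ± 31.9 in EPN Sox9-GOF and 92.5 ± 65.6 in EPN control, against 3.27 ± 2.91 in HGG control (SD, n = 3 each). Mrap2, a relative of Mrap, went the other way and was lower in every EPN library than in every HGG library.

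Akr1cl (minus strand of chromosome 1, 65012689 to 65032759) had rescaled counts of 2939, 3276 and 2876 in EPN Sox9-GOF and 1841, 1772 and 2499 in EPN control. A single Akr1cl read was counted in the 9 HGG libraries, in the third HGG control. All 3 EPN Sox9-GOF libraries lay above all 3 EPN controls.

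**Figure D1:**
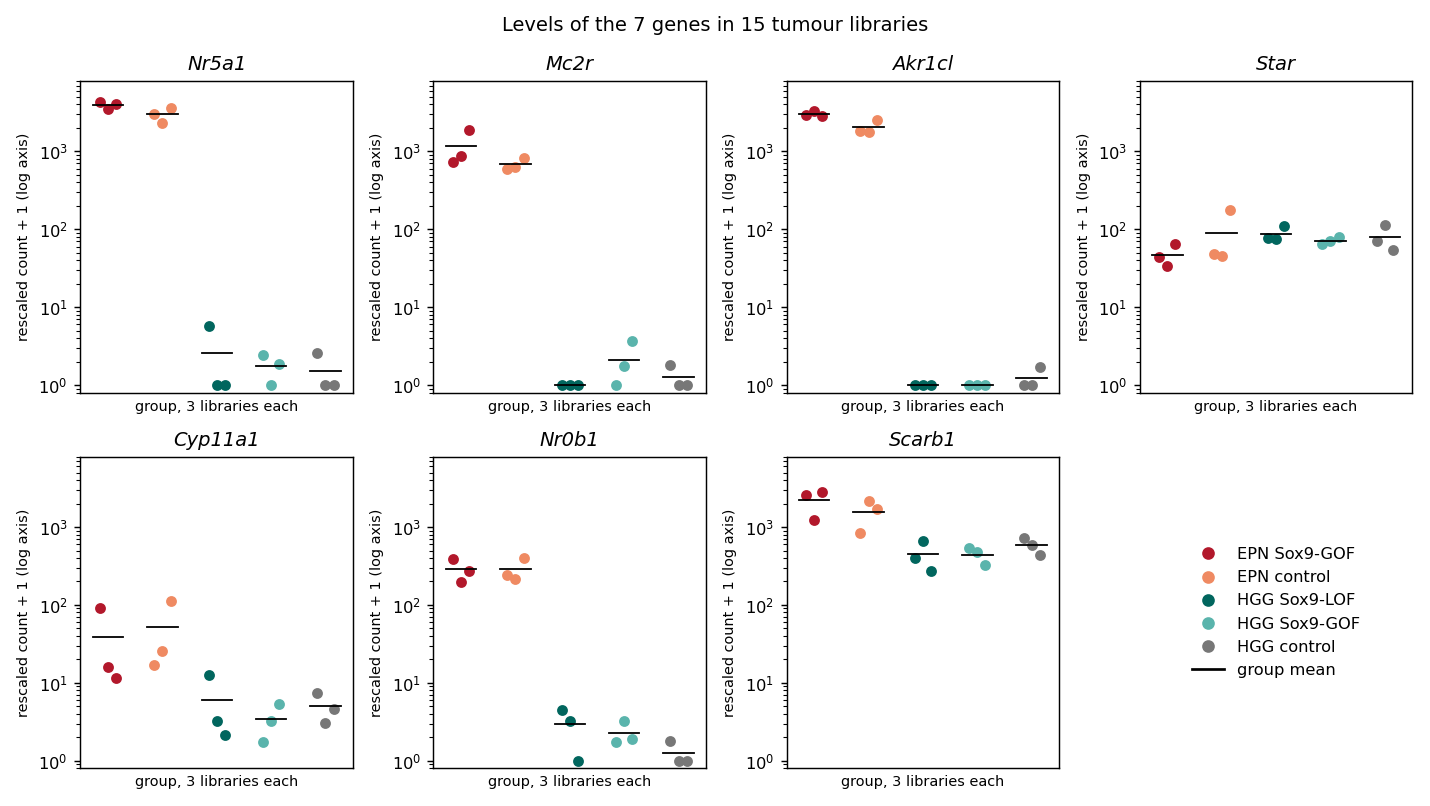
Rescaled counts plus 1 on a log axis for the 7 genes, with 1 point per library and a line at the mean of each group of 3. Nr5a1, Mc2r, Akr1cl and Nr0b1 lie at 198 or more in EPN and at 4.68 or less in HGG, whereas the EPN and HGG values of Star overlap.

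The genes of the first steps of steroid synthesis, Star, Cyp11a1 and Scarb1, differed less between EPN and HGG. Among them only Scarb1 had all EPN libraries above all HGG libraries. Star (plus strand of chromosome 8, 25806555 to 25815982) had rescaled counts of 42.5, 32.3 and 63.4 in EPN Sox9-GOF and 47.5, 44.0 and 176 in EPN control. Its level was 53.3 to 111 over the 9 HGG libraries. The third EPN control lay above the HGG range, the third EPN Sox9-GOF library lay within it, and the other EPN libraries lay below it. The ratio of EPN control to HGG control by reads was 1.16 with a counting interval of 0.953 to 1.42. Without the third EPN control this ratio was 0.669, with an interval of 0.514 to 0.865. Star lies 0.014 kb from Ash2l on the opposite strand, and the strand setting of the counting is not given in the sources used here.

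Cyp11a1 (plus strand of chromosome 9, 58006411 to 58027023) had rescaled counts of 89.4, 14.8 and 10.6 in EPN Sox9-GOF and 15.8, 24.8 and 112 in EPN control. Over the 9 HGG libraries it was 0.718 to 11.7. The first EPN Sox9-GOF library and the third EPN control were high, and the lowest EPN library lay below the highest HGG library. Its ratio of EPN control to HGG control by reads was 9.92, with a counting interval of 5.67 to 18.7. Without the third EPN control it was 4.55, with an interval of 2.40 to 9.11.

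Scarb1 (minus strand of chromosome 5, 125277087 to 125341094) had rescaled counts of 2601, 1230 and 2856 in EPN Sox9-GOF and 841, 2191 and 1688 in EPN control. It was 275 to 733 over the HGG libraries, so it was well expressed in both tumour types and higher in EPN. The ratio of EPN control to HGG control by reads was 2.68, with a counting interval of 2.53 to 2.83.

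In all, 5 of the 7 genes had all 6 EPN libraries above all 9 HGG libraries, and 10.1% of the 15109 genes with a mean of at least 10 did so, while 0 of the 7 had all EPN libraries below, as 7.46% of genes did. The choice of genes used this contrast, so nothing is read from that count. Star was not higher in EPN and Cyp11a1 was low there, so the data do not bear out the name steroidogenic programme for the whole group, and the genes are called by their own names. Per transcript length, in TPM (transcripts scaled to length and library size), EPN Sox9-GOF held 295 of Nr5a1, 228 of Mc2r, 228 of Akr1cl, 85.0 of Scarb1, 51.5 of Nr0b1, 3.60 of Star and 2.63 of Cyp11a1. Nr5a1 stood at place 556 of 23358 genes by TPM in EPN Sox9-GOF and at place 710 in EPN control.

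The promoters of Akr1cl and Nr0b1, both high in EPN, are shown first, followed by those of Nr0b2 and Amhr2, which were high in EPN as well and are shown because they hold a match. Sequences run from 250 bases before to 50 bases after the gene start and come from RefSeq (GRCm38.p6, the same build as mm10). Capitals mark AAGGTCA or AAGGCCA, sites of the kind bound by NR5A1, searched on both strands.
Akr1cl, chr1:65032710-65033009, minus strand: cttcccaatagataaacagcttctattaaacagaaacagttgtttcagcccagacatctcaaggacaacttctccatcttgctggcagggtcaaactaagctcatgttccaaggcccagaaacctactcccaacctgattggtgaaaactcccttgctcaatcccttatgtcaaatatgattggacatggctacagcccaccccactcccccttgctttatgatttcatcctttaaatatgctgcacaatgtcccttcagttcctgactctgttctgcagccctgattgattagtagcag
Nr0b1, chrX:86191525-86191824, plus strand: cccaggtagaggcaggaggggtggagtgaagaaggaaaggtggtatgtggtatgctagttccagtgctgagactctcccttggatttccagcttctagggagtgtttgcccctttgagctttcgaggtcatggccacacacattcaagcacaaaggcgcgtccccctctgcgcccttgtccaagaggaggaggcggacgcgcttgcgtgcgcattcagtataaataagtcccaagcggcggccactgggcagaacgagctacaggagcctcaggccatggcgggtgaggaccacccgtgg
Nr0b2, chr4:133553126-133553425, plus strand: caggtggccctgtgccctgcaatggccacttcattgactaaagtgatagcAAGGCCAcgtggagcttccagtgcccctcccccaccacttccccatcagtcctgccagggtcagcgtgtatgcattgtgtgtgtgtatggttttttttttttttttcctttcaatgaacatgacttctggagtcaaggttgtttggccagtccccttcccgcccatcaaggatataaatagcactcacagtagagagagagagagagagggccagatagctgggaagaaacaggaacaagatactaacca
Amhr2, chr15:102445117-102445416, plus strand: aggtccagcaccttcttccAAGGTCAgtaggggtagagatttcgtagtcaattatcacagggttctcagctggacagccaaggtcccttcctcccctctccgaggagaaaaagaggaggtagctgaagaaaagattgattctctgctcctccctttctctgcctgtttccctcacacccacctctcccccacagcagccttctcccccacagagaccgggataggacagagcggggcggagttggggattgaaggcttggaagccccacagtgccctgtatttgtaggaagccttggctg
The Akr1cl and Nr0b1 windows held neither motif. Nr0b2 held AAGGCCA starting at -200 and Amhr2 held AAGGTCA starting at -231 relative to the gene start. Over all 32851 promoters, 4.72% held AAGGTCA, 6.2% held AAGGCCA and 10.6% held either. Among 26 promoters of 23 genes listed as NR5A1 partners or as adrenal and gonad markers, 4 held either. The shorter half-site AGGTCA, which lies within AAGGTCA, was searched only after the Nr0b1 sequence had been read: it starts at -126 in Nr0b1, is absent from the Akr1cl window, and is held by 16.3% of all promoters. A match is a description of these letters and not a binding site.

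The wider pathway was read from lists of its genes. Of 7 steroid enzymes with a mean of at least 10, only Akr1c14, a 3-alpha-hydroxysteroid dehydrogenase, was higher in all EPN than in all HGG libraries, and Srd5a1, a 5-alpha-reductase, was lower. Cyp11b1 and Cyp11b2, which make corticosterone and aldosterone, had 0 reads in the 6 EPN libraries. Cyp17a1, which leads to androgens, had 7 reads in the 6 EPN libraries and Cyp21a1, which leads to corticosteroids, had 3.

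The electron chain that feeds CYP11A1 was present. Fdxr (ferredoxin reductase) averaged 1615 ± 388 in EPN Sox9-GOF and 955 ± 47.6 in EPN control, against 294 ± 150 in HGG control (SD, n = 3 each). Fdx1 (ferredoxin) averaged 471 ± 85.4 in EPN Sox9-GOF and 271 ± 13.1 in EPN control, against 146 ± 13.6 in HGG control (SD, n = 3 each). Together with Cyb5a and Stard5 these were the 4 of 11 genes of electron transfer and cholesterol import that lay above all HGG libraries. Among genes of cholesterol supply, Lrp1, Lipe and Soat1 lay above all HGG libraries, and Vldlr lay below.

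Transcription factors of the early adrenal and gonad were high alongside Nr5a1. Of 20 measured, 6 were higher in all EPN libraries, namely Nr0b2, Wt1, Gata4, Gata6, Tcf21 and Dmrt1. Dmrt1, a testis determinant, had 196 to 703 in the 6 EPN libraries and 0 reads in the 9 HGG libraries. Wt1, needed for gonad and kidney formation, averaged 1305 ± 706 in EPN Sox9-GOF and 1527 ± 488 in EPN control, against 2.53 ± 2.40 in HGG control (SD, n = 3 each).

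Markers of adrenal cortex and gonad gave a mixed reading. Of the 9 with a mean of at least 10, 7 were higher in all EPN libraries (Akr1b7, Mrap, Amh, Amhr2, Inha, Dlk1 and Dmrt1). Among all genes with that mean, 10.1% were. The whole list of 19 genes summed to 20248 to 29425 in EPN Sox9-GOF and 11014 to 21482 in EPN control. It summed to 301 to 586 in HGG control, 415 to 1457 in HGG Sox9-LOF and 189 to 446 in HGG Sox9-GOF. Dlk1 alone had 9456 to 23374 over the 6 EPN libraries, so the EPN sums largely reflect that gene. Of the same list, the enzymes Cyp11b1 and Cyp11b2 and the receptor gene Fshr had 0 reads in EPN. Nr5a1 is also known from the ventromedial hypothalamus and the pituitary. Of a list of hypothalamic markers, not all of them of the ventromedial part, Nkx2-1, Sox14 and Otp had 0 reads in EPN. Fezf1 of that list had 4 reads in the 6 EPN libraries and 22 in the 9 HGG libraries. Of a list of pituitary markers, Gh, Prl, Fshb and Gnrhr had 0 reads in EPN. Of the other markers of these 2 lists, Sim1 alone lay above all HGG libraries, at rescaled counts of 8.45 to 154 in EPN and 0 to 4.45 in HGG. Adcyap1 had 0 to 145 in EPN and 4.76 to 945 in HGG, and Slc17a6 had 3.49 to 62.2 in EPN and 3.97 to 352 in HGG. Pomc had 8.65 to 27.03 in EPN and 5.87 to 99.4 in HGG, and Lhb had 3.84 to 22.2 in EPN and 0 to 26.98 in HGG, so the ranges of these 4 genes overlapped.

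**Figure D2:**
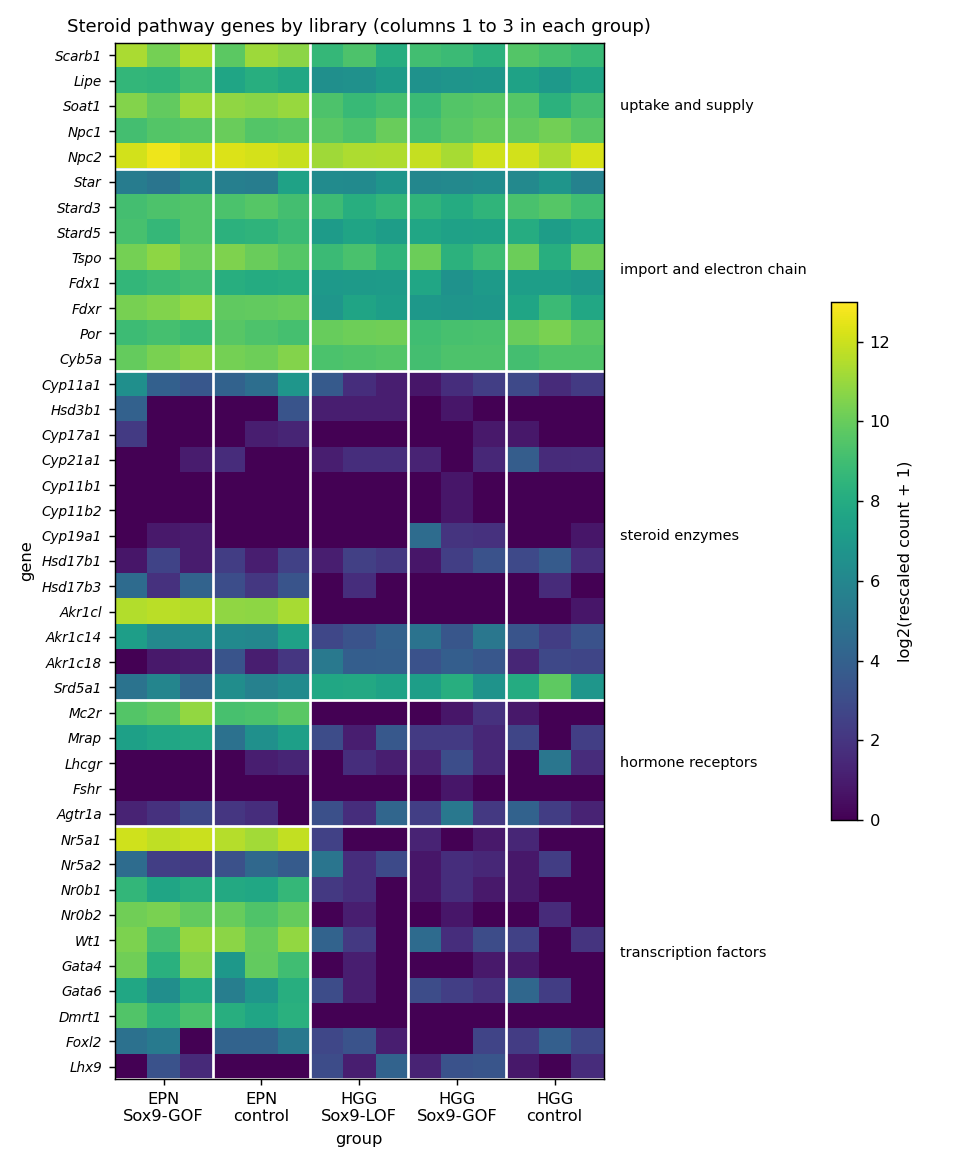
Heat map of log2(rescaled count + 1) with genes in rows, grouped by role, and the 15 libraries in columns. Nr5a1, Nr0b2, Wt1, Gata4, Dmrt1, Mc2r and Akr1cl are bright in EPN and dark in HGG, while Cyp11b1 and Cyp11b2 are at 0 in the EPN columns.

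Within EPN the enzymes varied from library to library. The 2 libraries with most Cyp11a1, EPN Sox9-GOF 1 and EPN control 3, were also the only EPN libraries with Hsd3b1 reads, at rescaled counts of 15.1 in EPN Sox9-GOF 1 and 9.33 in EPN control 3. They had the most Akr1c14 too, at 158 in EPN Sox9-GOF 1 and 171 in EPN control 3, against 64.2 to 75.9 in the other EPN libraries. Nr0b1 was highest in the same pair, and Star only in EPN control 3. These libraries were noticed after their values were seen, and no test was made of them.

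**Figure D3:**
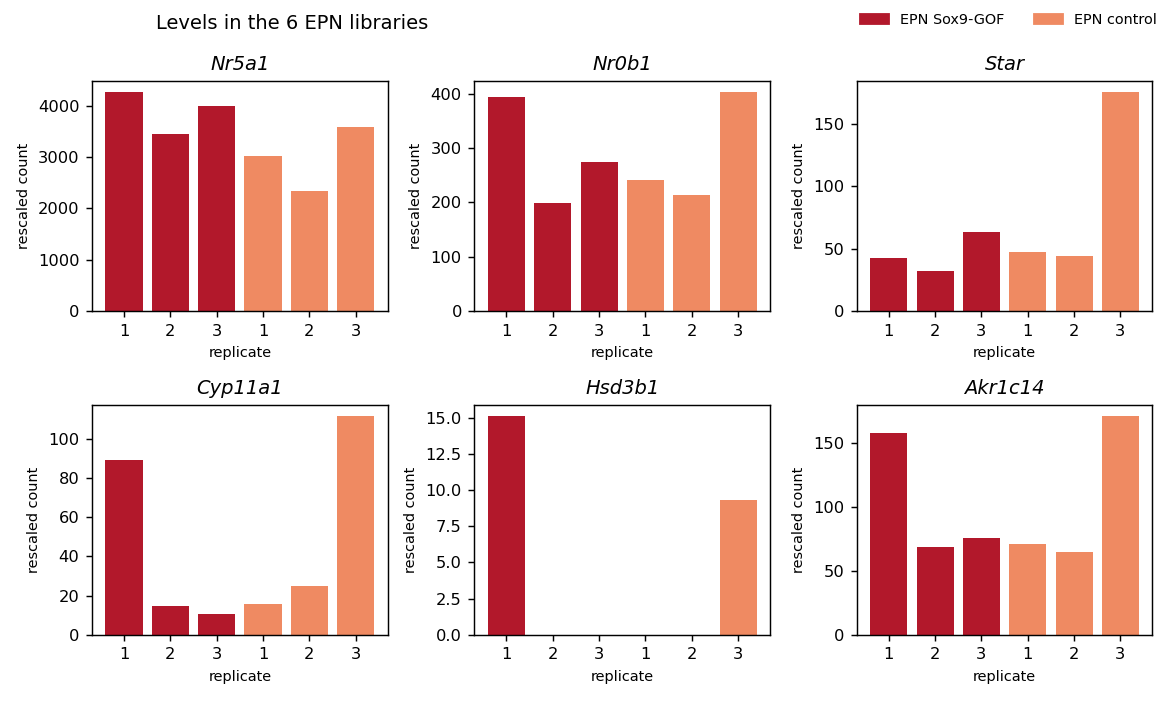
Rescaled counts of 6 genes in the 3 EPN Sox9-GOF libraries and the 3 EPN control libraries, 1 bar per library. EPN Sox9-GOF 1 and EPN control 3 hold the tallest bars of Cyp11a1, Hsd3b1, Akr1c14 and Nr0b1.

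EPN Sox9-GOF was then compared with EPN control, a contrast that the choice of genes did not use, although it shares the EPN control libraries with it. None of the 7 genes passed limma, and 0.0% of the 14591 genes tested did. At an unadjusted p under 0.05 there were 2196 genes, edgeR called 0 and DESeq2 called 842 (5.77%), of which 0 were among the 7. Akr1cl had a log2 fold change of 0.63 (SE 0.18, 95% interval 0.21 to 1.06, limma adjusted p = 0.183), and DESeq2 gave an adjusted p of 0.0629. It was the 1 gene of the 7 whose groups did not overlap with Sox9-GOF higher, as was the case for 9.45% of all genes tested, while 0 of the 7 separated with Sox9-GOF lower, as 12.5% did. Its exact two-sided permutation p was 0.1, the smallest that 3 against 3 libraries allow.

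The other 6 genes had intervals that included 0. For Nr5a1 the log2 fold change was 0.45 (SE 0.20, interval -0.03 to 0.93, limma adjusted p = 0.356), and for Mc2r it was 0.70 (SE 0.35, interval -0.12 to 1.53, limma adjusted p = 0.408). Scarb1 had 0.56 (SE 0.44, limma adjusted p = 0.609) and Nr0b1 had 0.06 (SE 0.34, limma adjusted p = 0.956). Star had -0.64 (SE 0.58, limma adjusted p = 0.670) and Cyp11a1 had -0.48 (SE 0.98, limma adjusted p = 0.861). The median of the 7 was 0.45, beside 0.04 over all genes tested.

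Among the other pathway genes, none passed limma either. In the list of electron transfer and cholesterol import, 10 of 11 genes had a positive log2 fold change, with a median of 0.09, beside 8021 of 14591 genes and a median of 0.04 over all genes tested. Fdx1 had 0.83 (SE 0.19, limma adjusted p = 0.152) and Fdxr had 0.78 (SE 0.19, limma adjusted p = 0.160), and both passed DESeq2 with adjusted p-values of 0.00987 for Fdx1 and 0.0175 for Fdxr. Lipe, a lipase that frees stored cholesterol, had 0.92 (SE 0.22, limma adjusted p = 0.160, DESeq2 adjusted p = 0.0169), and Dmrt1 had 1.106 (SE 0.31, limma adjusted p = 0.177, DESeq2 adjusted p = 0.0233). Nr2f1, an orphan receptor of neural patterning, had -1.94 (SE 0.29, limma adjusted p = 0.133, DESeq2 adjusted p = 3.39e-06), and the brain cholesterol hydroxylase gene Cyp46a1 had -2.06 (SE 0.33, limma adjusted p = 0.133, DESeq2 adjusted p = 1.98e-05).

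Marker sums of neurons and of glioma lineages did not overlap between the same EPN groups, while those of endothelium and of macrophages did. Of the 14591 genes tested, 12.5% were lower in EPN Sox9-GOF with non-overlapping groups, and the counts below stand beside that share. All 10 pan-neuron markers were lower, with non-overlapping groups, and their sum was 2273 to 4256 in EPN Sox9-GOF and 7544 to 16350 in EPN control. Of 10 glioma lineage markers, 6 were lower with non-overlapping groups, and their sum was 11460 to 29787 in EPN Sox9-GOF and 35338 to 41377 in EPN control. Endothelial markers summed to 2453 to 4086 in EPN Sox9-GOF and 3824 to 5154 in EPN control, with 3 of 10 lower and not overlapping. Macrophage and microglia markers summed to 13962 to 39964 in EPN Sox9-GOF and 19788 to 41923 in EPN control, with 1 of 10 lower and not overlapping. Their part in the results above was not tested.

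**Figure D4:**
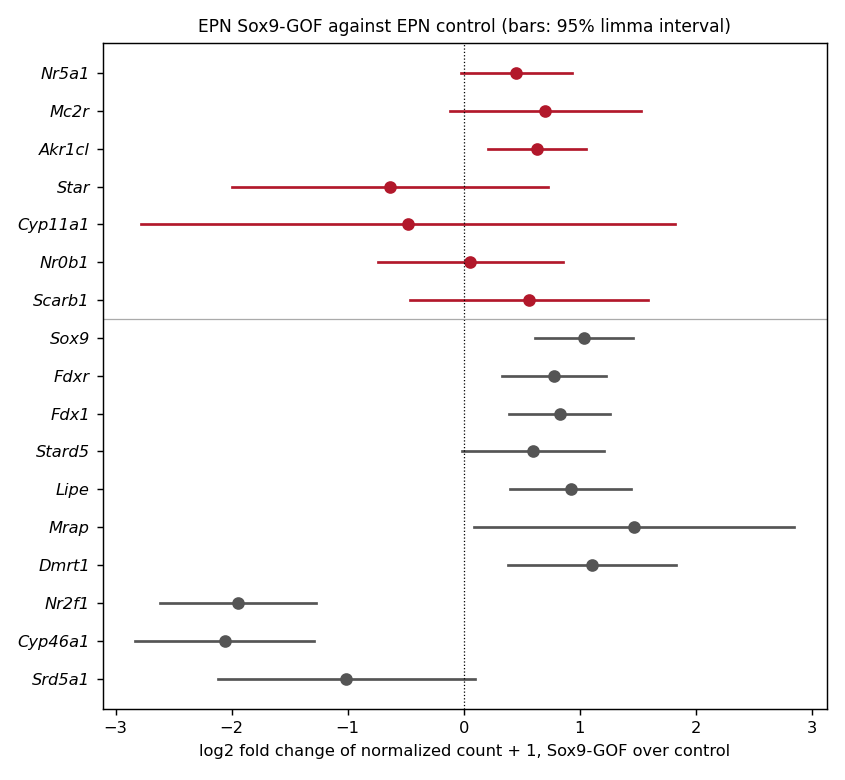
Log2 fold changes of EPN Sox9-GOF over EPN control with 95% limma intervals for the 7 genes (upper block) and for other named genes (lower block). Of the 7 genes, the interval of Akr1cl, 0.21 to 1.06, is the one that leaves out 0.

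In HGG only Star and Scarb1 reached the minimum mean of 10, and neither passed limma. In the libraries labelled Sox9-LOF against HGG control, Star had a log2 fold change of 0.19 (SE 0.37, limma adjusted p = 0.830) and Scarb1 had -0.45 (SE 0.38, limma adjusted p = 0.567). In HGG Sox9-GOF against the same HGG controls, Star had -0.06 (SE 0.36, limma adjusted p = 0.943) and Scarb1 had -0.38 (SE 0.29, limma adjusted p = 0.487). The groups overlapped for both genes in both contrasts. Non-overlapping groups were found for 12.8% of genes (higher) and 11.7% (lower) with the Sox9-LOF label, and for 15.3% (higher) and 15.2% (lower) in HGG Sox9-GOF. limma called 0.0% of genes in both contrasts, and edgeR called 0. With the Sox9-LOF label 2564 genes had an unadjusted p under 0.05 and DESeq2 called 1339 (9.01%). In HGG Sox9-GOF 3420 genes had an unadjusted p under 0.05 and DESeq2 called 2260 (15%). The Sox9-GOF effect in EPN minus that in HGG was 0.94 for Scarb1 (SE 0.58, interval -0.33 to 2.21, limma adjusted p = 0.319) and -0.58 for Star (SE 0.73, limma adjusted p = 0.652), in a test that 6.07% of all genes passed (DESeq2 16.3%).

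Some genes had profiles over the 15 libraries close to those of 3 of the 7. The rule chose these 3 for being high in EPN and close to absent in HGG, and that step makes up most of their profiles. Their closeness to each other, and to other genes with the same step, follows largely from that choice, so this is a description only. By the root mean square difference of centred log2 profiles, Nr5a1 and Akr1cl differed by 0.749, Akr1cl and Mc2r by 1.10 and Nr5a1 and Mc2r by 1.18. Among genes other than the 7 and predicted genes, the nearest to Nr5a1 were Tnnt3 (0.913), Upk3b (1.10) and Nr0b2 (1.22). Nearest to Mc2r were Atp6v1b1 (0.447), Dmrt1 (0.711) and Nr0b2 (0.830), and nearest to Akr1cl were Tnnt3 (0.517), Nr0b2 (0.954) and Upk3b (1.04). Tnnt3 encodes a troponin of fast skeletal muscle and Upk3b a uroplakin of mesothelium.

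The neighbours of Nr5a1, Akr1cl, Mc2r and Nr0b1 along the chromosome did not share the size of the difference. The rule chose the first 3 of these genes by that difference, so this is a description only. Of the 10 protein-coding neighbours of Nr5a1, 2 were higher in all EPN libraries (Lhx2 and Nr6a1), and the log2 ratio of EPN to HGG was 1.106 for Nr6a1, 8.83 kb away, and 0.20 for Psmb7, against 10.78 for Nr5a1 itself. Of the neighbours of Akr1cl, 1 was higher (Mettl21a), and the largest log2 ratio was 2.78, against 11.20 for Akr1cl. None of the 10 neighbours of Mc2r or of Nr0b1 was higher in all EPN libraries, and their own log2 ratios were 9.30 for Mc2r and 7.06 for Nr0b1. Cyp11a1, at 3.24, lay closer to its neighbours Sema7a (2.16) and Arid3b (2.68), both higher in all EPN libraries. Star, at -0.21, had 1 neighbour higher in all EPN libraries, Fgfr1 (1.59). Scarb1, at 1.95, had none higher and 2 lower.

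**Figure D5:**
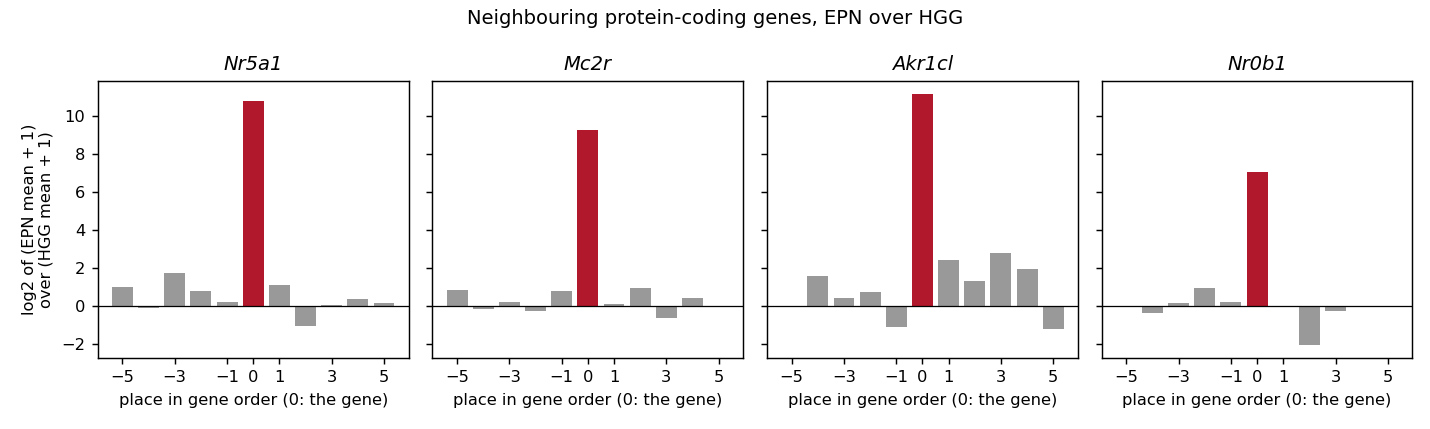
Log2 ratio of the EPN mean to the HGG mean of rescaled counts, each plus 1, for 4 genes (place 0) and 5 protein-coding neighbours on each side in gene order, with no visible bar where the log2 ratio is at or near 0. The bar at place 0 reaches 7.06 for Nr0b1 to 11.20 for Akr1cl, and the highest neighbour, Crygc beside Akr1cl, is at 2.78.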

How the data were processed

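Gene expression was measured in 15 mouse tumour libraries. Per the submitters' processing notes, STAR 2.5.0a, FastQC 0.11.7, MultiQC 1.11, DESeq2 1.30.1 and the mm10 build were used, with no roles given. How reads were counted, with which strand setting and annotation, is not given in the sources used here. The authors deposited 3 tables of 6 libraries, whose values are a signal per gene: read counts divided by a size factor per library and table, as the values show. Whole reads were recovered for 100% of values within 0.001 read, and rescaled together by the median of ratios (the rescaled count). TPM used exon lengths of GENCODE M21. The depth was 4665428 to 14119140 reads, and intervals and floors cover counting error only.

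The main test was limma 3.58.1 in R 4.3.3 with trended variance on log2(normalized count + 1), within each table, for genes whose mean was 10 or more, at an adjusted p (Benjamini-Hochberg) below 0.05. That scale understates changes of low genes. Alternatives were edgeR 4.0.16 and DESeq2 1.42.0 on recovered reads, TMM, other pseudocounts and minimums, a shared spread, a replicate block and leaving out each library. The fits were tested on simulated data. The members, lists and tests were chosen with earlier results of these data known. Named genes were the 7 members, up to 3 genes per pathway list by smallest p in EPN, markers at 0 or highest in EPN, the nearest neighbours and the 3 most alike profiles. Other genes were named after their values were seen, and a gene that the rule takes in is not reported here. The promoter motifs were chosen after the data were seen, and AGGTCA was added after a promoter had been read.

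Replicate numbers run through all groups. Same-numbered libraries correlated at -0.0996, 0.0199 and 0.297 in EPN, at -0.141, 0.0731 and 0.199 for the libraries labelled Sox9-LOF and at 0.178, 0.443 and 0.224 for HGG Sox9-GOF, so the numbers may pair the last contrast.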

Additional observations from a re-analysis of the deposited data

Results flagged for a closer look

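The Sox9-GOF effect differed between EPN and HGG, by a test of the difference itself, for 5 of 56 genes. These 56 were the genes under the naming rule that could be tested, and 6.07% of all genes passed. Fdxr and Lipe were named for a small p in EPN Sox9-GOF against EPN control, which is part of this difference. Sox9 is the altered gene, so nothing is read from that count. The difference of log2 fold changes, EPN minus HGG, was 1.98 for Fdxr (SE 0.42, limma adjusted p = 0.0276). It was 1.51 for Lipe (SE 0.32, limma adjusted p = 0.0280) and -1.36 for Sox9 (SE 0.26, limma adjusted p = 0.0233). For the neuronal microtubule gene Map2 it was -1.83 (SE 0.37, limma adjusted p = 0.0258), and for Tcf4 -1.37 (SE 0.24, limma adjusted p = 0.0197). Tcf4 was named as the nearest protein-coding neighbour of Mc2r on one side, although it lies 914 kb away. Fdxr had rescaled counts of 1309, 1483 and 2051 in EPN Sox9-GOF and 917, 939 and 1008 in EPN control. In HGG it had 120, 109 and 118 in HGG Sox9-GOF and 196, 467 and 219 in HGG control, so the 3 libraries of each Sox9-GOF group lay on opposite sides of their controls. Tcf4 had rescaled counts of 1580, 2059 and 2077 in EPN Sox9-GOF and 2618, 2788 and 3007 in EPN control. In HGG it had 2060, 2891 and 2732 in HGG Sox9-GOF and 1559, 1292 and 1452 in HGG control, again on opposite sides. With the replicate block the limma adjusted p was 0.0523 for Fdxr, 0.0618 for Lipe 0.0480 for Sox9 and Map2, and 0.0495 for Tcf4. Leaving out single libraries gave limma adjusted p-values of up to 0.0697 for Fdxr, 0.0737 for Lipe, 0.0662 for Sox9, 0.0662 for Map2 and 0.0587 for Tcf4.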

How the results depend on the processing

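None of the 7 genes gained or lost a call under any alternative run: of their 204 recomputed fold changes, 194 kept their direction and 10 changed sign, all 10 on leaving out 1 library. Over the fits that left out 1 library, the log2 fold change in EPN ranged from -0.20 to 0.34 for Nr0b1, from -0.99 to 0.0066 for Star and from -1.40 to 0.34 for Cyp11a1. Nr0b1 was below 0 without EPN Sox9-GOF 1, EPN control 1 or EPN control 2, Star was above 0 without EPN control 3, and Cyp11a1 was above 0 without EPN control 3 or EPN Sox9-GOF 3. For Star the range was -0.046 to 0.48 for the libraries labelled Sox9-LOF, -0.30 to 0.23 in HGG Sox9-GOF and -0.93 to 0.065 for the difference of effects. Fdx1 in HGG Sox9-GOF ranged from -0.33 to 0.20, and was 0.0095 with edgeR and 0.0087 with DESeq2. Counts of genes called depended on the tool. In EPN, DESeq2 called 842, a spread shared by 15 libraries 130, and leaving out 1 library 0 to 5. For the libraries labelled Sox9-LOF, DESeq2 called 1339, the shared spread 1086, a minimum mean of 50 1, and leaving out 1 library 0 to 6. For HGG Sox9-GOF, DESeq2 called 2260, the shared spread 2234 and a minimum mean of 50 161. For the difference of effects, limma called 920, DESeq2 2468, the replicate block 367, and leaving out 1 library 35 (without EPN control 3) to 2095 (without HGG control 3). The replicate block changed no call of the 7 genes. Leaving out each control library from the ratios of EPN control to HGG control, and the alternatives for Tcf4, were added after the data were seen: of the recomputed ratios with reads in both groups, 30 stayed within the counting interval and 8 moved outside it. Those 8 were of Star (0.669 to 1.45), Cyp11a1 (4.55) and Scarb1 (2.05 to 3.43). The cause of these differences was not tested. With 3 libraries per group, and few reads of Star and Cyp11a1, small changes were not detectable at this depth.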

Other observations

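Several gonadal hormone genes varied between the EPN libraries. Inha, a subunit of inhibin, had rescaled counts of 3317, 1329 and 6604 in EPN Sox9-GOF and 811, 1905 and 2167 in EPN control. Amh, the hormone that removes the Müllerian ducts, had 674, 238 and 1681 in EPN Sox9-GOF and 276, 139 and 493 in EPN control. Gata4, a partner of NR5A1 in gonads, had 1171, 305 and 1519 in EPN Sox9-GOF and 119, 934 and 509 in EPN control. In each of these 3 genes the groups overlapped, and EPN Sox9-GOF 2 was the lowest of its group.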
